A study of Mus musculus with 8 samples.

Results

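The genes described here are 31 monocyte, macrophage and lysosome genes of mouse acute myeloid leukaemia, out of 18860 genes measured in 8 RNA libraries. They were taken by symbol from a list of 32 names built around Cd68. The remaining name, Marco, had no value under that symbol and enters only the promoter counts below. All 31 genes with values were tested, since none had a value under 14.8 in any library and the filter on low values (at least 10 in at least 4 libraries) removed none of them. The cells came from the marrow of moribund C57BL/6 mice, with 4 libraries per genotype. Both genotypes carried Vav1-Cre, a recombinase under a promoter that is active throughout the blood lineages, together with hairpins that knock down Nf1 and Mll3 (shNf1 and shMll3). In the 11B3-deleted group (11B3fl/p53fl) 1 copy of chromosome 11 lost the 11B3 segment, which holds Trp53 and Cd68, and the other had Trp53 floxed. The p53-loss-only animals (p53fl/fl) differed in that both alleles of Trp53 were floxed and no copy of Cd68 was targeted. The comparison asked how far the lower level of Cd68 in the 11B3-deleted leukaemias went beyond the loss of 1 of its 2 copies, with the other monocyte genes and the other genes of the segment as measures. The labels speak of lines and give neither ages nor the animal behind each library, so each p-value reflects only how these 8 libraries vary, which may be technical.

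Monocytes arise in the marrow from myeloid progenitors and mature into macrophages, which take up particles and break them down in lysosomes. Cd68 encodes a heavily glycosylated membrane protein of late endosomes and lysosomes, a relative of Lamp1, and it is widely used as a marker of monocytes and macrophages. Monocytes newly released from marrow carry Ly6c, Cd14, lysozyme and the clotting factor subunit F13a1, and resident macrophages carry Emr1 (the F4/80 antigen), Mrc1, C1q and the iron-handling genes Hmox1 and Spic. In bulk RNA, fewer cells of a type and less RNA per cell cannot be told apart.

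The promoters of Cd68, of its neighbour Mpdu1 and of the lysosome genes Ctss and Lamp1 are printed because the results turn on how differently these 4 genes stood in the same libraries. Each line gives the 250 bases before the start of transcription, 5′ to 3′, from RefSeq on GRCm38.p6. Capitals mark 3 motifs searched on both strands, which do not overlap in these sequences: GAGGAA, the core bound by PU.1, the master factor of myeloid cells, TGAGTCA, bound by AP-1, and CACGTG, an E-box bound by TFEB, a regulator of lysosome genes, among other factors.
Cd68 (chr11:69666171-69666420, minus strand): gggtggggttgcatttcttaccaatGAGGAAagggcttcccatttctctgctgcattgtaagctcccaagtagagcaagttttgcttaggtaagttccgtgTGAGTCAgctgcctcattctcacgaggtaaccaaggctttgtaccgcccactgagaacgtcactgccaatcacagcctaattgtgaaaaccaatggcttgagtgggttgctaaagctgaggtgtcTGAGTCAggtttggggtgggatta
Mpdu1 (chr11:69662650-69662899, minus strand): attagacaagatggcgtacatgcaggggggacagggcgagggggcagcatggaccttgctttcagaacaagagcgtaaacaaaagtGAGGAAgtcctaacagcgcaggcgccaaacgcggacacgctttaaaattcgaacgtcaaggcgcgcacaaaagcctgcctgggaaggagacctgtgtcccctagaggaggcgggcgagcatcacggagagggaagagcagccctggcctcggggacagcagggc
Ctss (chr3:95526536-95526785, plus strand): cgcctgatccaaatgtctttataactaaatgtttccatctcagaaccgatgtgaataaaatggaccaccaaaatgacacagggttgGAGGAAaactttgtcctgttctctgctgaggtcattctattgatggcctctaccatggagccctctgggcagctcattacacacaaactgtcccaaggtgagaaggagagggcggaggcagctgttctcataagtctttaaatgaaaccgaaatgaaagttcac
Lamp1 (chr8:13158911-13159160, plus strand): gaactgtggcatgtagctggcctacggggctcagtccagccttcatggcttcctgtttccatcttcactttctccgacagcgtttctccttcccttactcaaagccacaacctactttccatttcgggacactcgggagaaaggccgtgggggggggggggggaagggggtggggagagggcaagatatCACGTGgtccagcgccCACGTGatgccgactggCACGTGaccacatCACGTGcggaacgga
Cd68 held 1 GAGGAA match and 2 TGAGTCA matches, the latter beginning 149 and 24 bases before the start. A TGAGTCA match occurred in 4.46% of the 32851 promoters in the RefSeq table and 2 or more in 0.167%. A promoter was matched for 23 of the 32 named genes, and Cd68 was the only one of these with TGAGTCA in this window. GAGGAA was found in at least 1 promoter of 12 of the 23 genes, Marco among them, and in 23.3% of all promoters. These shares differ in unit, since the first counts genes, of which Ly6c2, Ly6c1, F13a1 and Fcgr3 had 2 promoters each. Lamp1 was the only one of the 23 with CACGTG, which it held 4 times, whereas 6.02% of all promoters held at least 1. The motifs were chosen after the genes were known, and a match is a run of letters, not a measured binding site.

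Across the whole series, 30502718 to 35719495 reads per library were recovered from the deposited values, which are read counts divided by a library's size factor plus 1. Granulocyte markers were abundant as a set. The 12 of them, which include Mpo and Elane, summed to 181135 to 738582 in the 11B3-deleted libraries and 295671 to 471275 in the p53-loss-only libraries. Of the markers of other cell types, the median of 10 B cell genes stood 5.68 above its mean over libraries (log2) in 1 library, 11B3-deleted replicate 3, while the other 7 ran from -1.70 to 0.62. The median of 11 erythroid genes ranged from -0.46 to 2.54 in the 11B3-deleted group and from -3.06 to 1.77 in the p53-loss-only group, and all 11 had a higher mean in the 11B3-deleted group without any passing the test. No marker on any list was at 0 reads in all libraries. Trp53 ranged from 189 to 392.5 in the 11B3-deleted libraries and from 300.2 to 577 in the p53-loss-only libraries, an overlap that leaves the labels unchecked by this gene.

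In the sentences that follow, 4 values in a row are replicates 1 to 4 of a group, "with the deletion" meaning the 11B3-deleted group and "without it" the p53-loss-only group. Cd68 was lower in every 11B3-deleted library than in any p53-loss-only library. Its deposited values were 1211, 1913, 827 and 1591 with the deletion against 7027, 5682, 8889 and 3414 without it. The highest 11B3-deleted library, replicate 2, lay well under the lowest p53-loss-only library, replicate 4. The means were 1385 ± 470.2 and 6253 ± 2305 (SD, n = 4 each), and on the log2 scale the group difference was -2.16 (SE 0.34, 95% interval -2.93 to -1.38), which puts Cd68 at 22.4% of the p53-loss-only level. Over all genes tested the difference did not pass the main test (limma adjusted p = 0.288), nor edgeR on the recovered reads (edgeR adjusted p = 0.295). It passed DESeq2 on the same reads (log2 difference -2.17, DESeq2 adjusted p = 5.59e-06), a test that called 0.341% of all genes lower. The main test called 2 of 14679 genes (0.0136%), neither of them among the 31. Loss of 1 of 2 copies gives -1 if RNA follows copy number. The 95% interval of Cd68 lay wholly below -1, and its upper end stayed between -1.72 and -1.16 when any 1 library was left out. The interval is not adjusted for the number of genes tested.

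**Figure D1:**
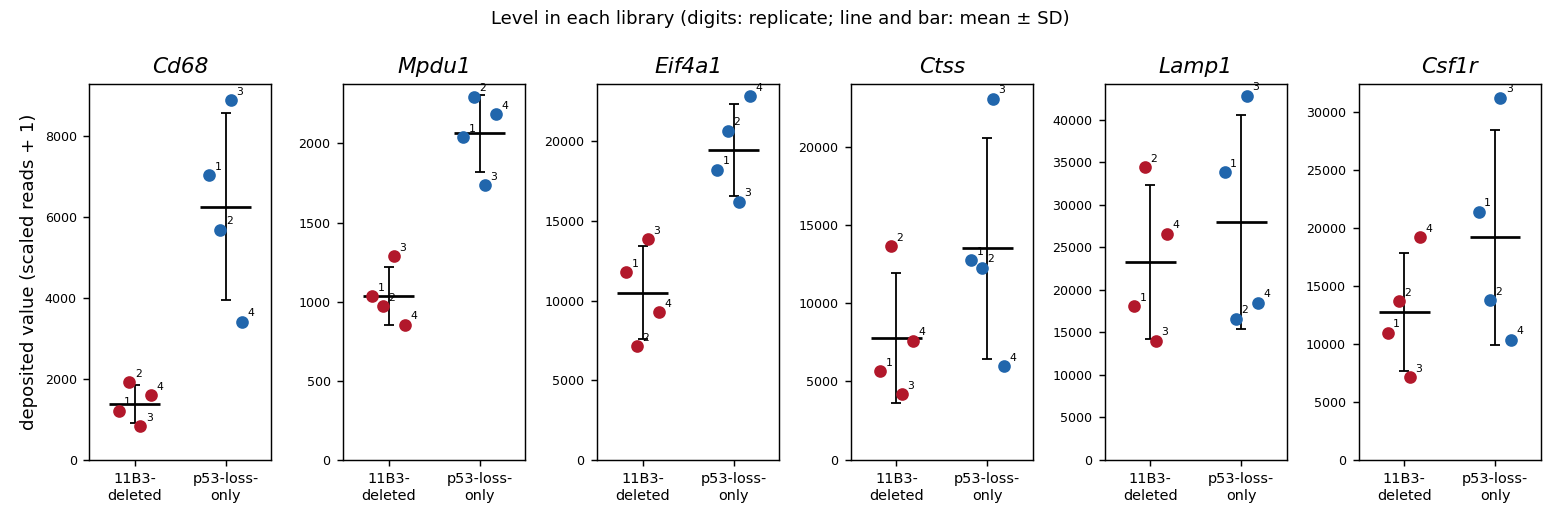
Deposited value (reads scaled for library size plus 1) of Cd68, its neighbours Mpdu1 and Eif4a1, and the monocyte or lysosome genes Ctss, Lamp1 and Csf1r in each library. Points are libraries numbered by replicate, and lines with bars are means ± SD (n = 4). The groups do not overlap for the 3 genes of the deleted segment and do overlap for the other 3, and within each genotype Cd68 is lowest in the libraries (11B3-deleted replicate 3, p53-loss-only replicate 4) where Ctss and Csf1r are also lowest.

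The genes on either side of Cd68 were lower too, by less. Mpdu1, which encodes a factor for the use of mannose-phosphate-dolichol in glycosylation, was at 1034, 973, 1287 and 855 with the deletion against 2041, 2295, 1737 and 2184 without it. That is a log2 difference of -1.001 (SE 0.18), or 49.96% of the p53-loss-only level. Eif4a1, an RNA helicase of translation initiation, was at 11790, 7114, 13837 and 9272 against 18204, 20661, 16210 and 22834, a log2 difference of -0.92 (SE 0.23). Over 10 tested genes near Cd68 the differences ran from -1.65 (Sat2) to -0.74 (Senp3). Neither adjacent gene's groups overlapped and neither passed the main test (limma adjusted p = 0.425 for Mpdu1 and 0.946 for Eif4a1). DESeq2 called Mpdu1 lower, as it did Cd68 (DESeq2 adjusted p = 0.000328 for Mpdu1), but not Eif4a1 (DESeq2 adjusted p = 0.0856). It called 3 of the 10 genes near Cd68 lower, against 0.341% of all genes. In GENCODE's gene models no other gene shares exonic bases with Cd68, and none of its 50-base words occurs in transcripts of another gene, so by these models its reads are separable from those of its neighbours.

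Among all 71 tested genes of the segment besides Cd68 and Trp53, taken by their place from Sco1 to Alox12, the median log2 difference was -0.92, and the middle 50% ran from -1.21 to -0.78. The mean was lower in 69 of the 71, against 48.4% of all tested genes, and 51 were lower at an unadjusted p under 0.05, against 2.38% of all tested genes. DESeq2 called 22 of the 71 lower, against 0.341% of all tested genes, so its call of Cd68 was shared with many segment genes. Cd68 had the lowest difference of all 72, and it was the only gene whose 95% interval ended below -1. Cd68 was picked out with earlier results of these data known, and the intervals are not adjusted for the number of genes. Its rank and interval are thus not independent support for a fall beyond copy loss. Next in order was Mgl2, a galactose-binding lectin of macrophages and dendritic cells (log2 difference -1.91, SE 0.79, limma adjusted p = 0.996). Mgl2 was at 74.2, 59.1, 130 and 739 with the deletion against 558, 225, 717 and 921 without it, so that 11B3-deleted replicate 4 reached the range of the other group. Clec10a, the related lectin gene beside it, differed by -0.85 (SE 0.49). Both lectins were singled out after their values were seen.

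**Figure D2:**
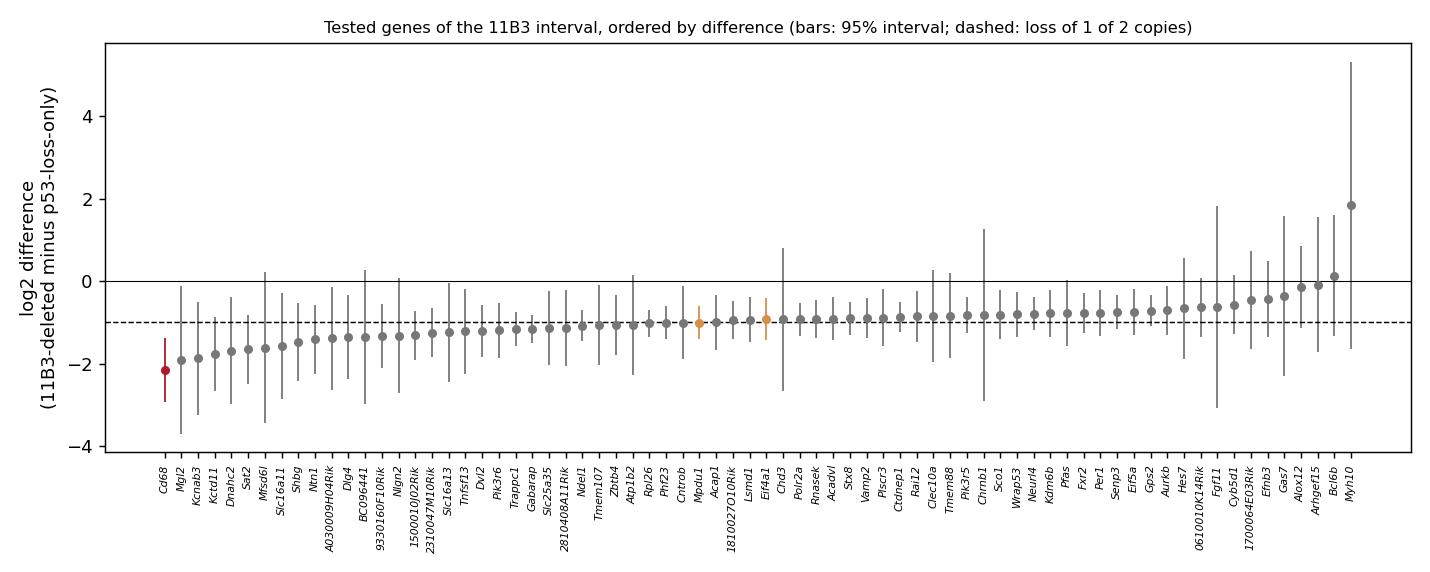
Log2 difference (11B3-deleted minus p53-loss-only) of Cd68 (red), its neighbours Mpdu1 and Eif4a1 (orange) and the other tested genes of the 11B3 segment, ordered from lowest to highest, with 95% intervals from the limma fit. Most genes lie near the dashed line at -1, the value of 1 lost copy, and Cd68 is leftmost at -2.16 with its whole interval under that line.

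Set against the segment within each library, Cd68 was less clearly separated. Subtracting the median of the 63 tested genes of a written interval list left Cd68 at -0.78, 0.14, -1.58 and -0.29 with the deletion against 0.90, 0.48, 1.32 and -0.13 without it (log2, each gene relative to its mean over 8 libraries). The groups overlapped, because 11B3-deleted replicate 2 exceeded p53-loss-only replicate 4. The difference was -1.27, or 41.4% (two-sided exact permutation test, p = 0.0571, where the smallest p that 70 arrangements allow is 0.0286). With the 71 genes taken by place the difference was -1.24 (exact permutation test, p = 0.0571), and with only 10 genes near Cd68 it was -1.18 (exact permutation test, p = 0.0571). The part of the Cd68 difference beyond copy loss was thus not separable from the spread between libraries by this measure. The SD of log2 values, with the deletion and without it, was 0.53 and 0.59 for Cd68 and 0.21 and 0.08 for the segment's median. A median over 63 genes and a single gene are unlike measures of spread. Among single segment genes the SDs were 0.25 and 0.18 for Mpdu1, 0.50 and 0.52 for Sat2, and 1.65 and 0.89 for Mgl2.

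Other monocyte genes were low in the libraries where Cd68 was low for its genotype. The median of 60 other monocyte and macrophage genes, none of them among the 31, was -0.42, -0.08, -0.96 and 0.14 with the deletion against 0.67, 0.20, 0.50 and -0.47 without it (log2 relative to the mean of each gene). The groups overlapped, with 11B3-deleted replicate 3 lowest and p53-loss-only replicate 4 next. Subtracting this median from Cd68 left -0.78, -0.47, -0.80 and -0.95 in the 11B3-deleted libraries and 0.67, 0.83, 1.17 and 0.76 in the p53-loss-only libraries. The groups then stood apart, and the spread within them narrowed to an SD of 0.20 and 0.22. In a limma fit with the monocyte median as a covariate, the slope of Cd68 on the monocyte median was 1.06 (SE 0.20). The genotype difference left in that fit was -1.58 (SE 0.20, 95% interval -2.03 to -1.12), or 33.6% of the p53-loss-only level, and over all genes it did not pass (limma adjusted p = 0.128), in a fit that called 0.0136% of all genes. In the same fit the median of the 71 segment genes was -1.03, 10 of them lay below Cd68, and the interval of 1 of them, Sat2, also ended below -1. Cd68 minus the segment's median was -0.55 in this fit and -1.24 in the fit without the covariate.

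**Figure D3:**
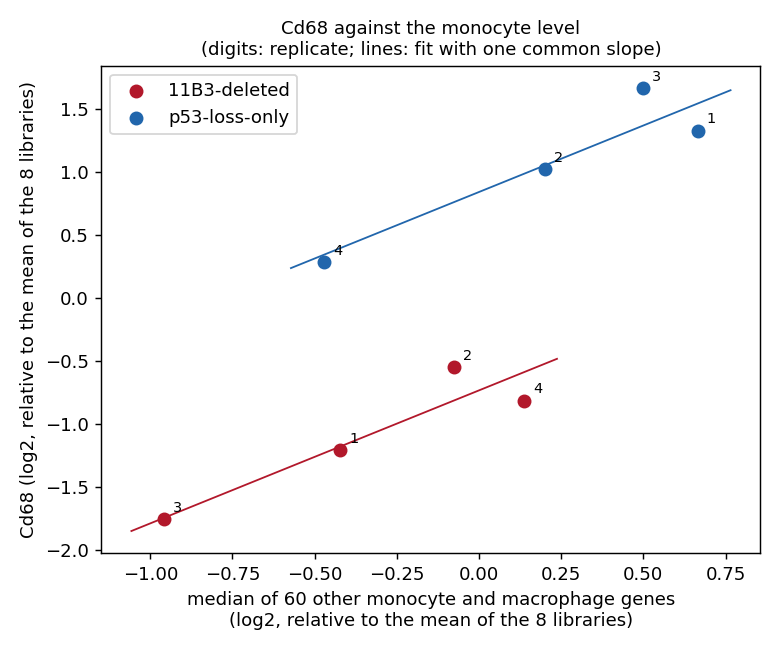
Cd68 (log2, relative to its mean over 8 libraries) against the library median of 60 other monocyte and macrophage genes, by genotype, with replicate numbers. Lines are the fit with 1 common slope of 1.06, and the 11B3-deleted libraries lie on the lower line (difference -1.58).

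How much of the Cd68 difference remained depended on which genes stood for the monocyte level. With the median of the other 30 genes described here as covariate it was -1.82 (SE 0.14, 95% interval -2.14 to -1.50). This fit called Cd68 over all genes (limma adjusted p = 0.00804), with 0.0204% of all genes called. The covariate in this fit is a score over a set chosen with earlier results known, so the call is not independent support. The monocyte and lysosome lists used as covariates were also chosen with earlier results known, and the same limit holds for those fits. Cd68 minus the segment's median was -0.83 there, with 3 of the 71 segment genes below Cd68 and the intervals of 2 others, Nlgn2 and Sat2, also ending below -1. With the median of the other lysosome genes it was -1.42 (SE 0.32, 95% interval -2.16 to -0.67, limma adjusted p = 0.564), an interval that includes -1. In that fit Cd68 was only -0.32 from the segment's median, 22 of the 71 genes lay below it, and 5 others had intervals ending below -1. With the monocyte median, the interval also reached above -1 when 11B3-deleted replicate 4 (upper end -0.88) or p53-loss-only replicate 4 (upper end -0.95) was left out.

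Subtracting the median of the other 30 genes left Cd68 at -0.81, -0.84, -1.10 and -0.90 with the deletion against 0.74, 0.83, 1.08 and 1.003 without it. The difference between genotypes was -1.83 on this scale, with an SD of 0.13 and 0.15 inside them. These values describe a chosen set and have no test. Against single genes the groups separated for some and not for others. Cd68 relative to Csf1r, the receptor for the monocyte growth factor M-CSF, was at -3.18, -2.84, -3.11 and -3.60 (log2 ratio of deposited values) against -1.61, -1.28, -1.81 and -1.60, without overlap. Csf1r itself was at 10982, 13667, 7114 and 19231 with the deletion against 21428, 13795, 31266 and 10359 without it, with overlap (log2 difference -0.56, SE 0.39). Relative to Lamp1 Cd68 was at -3.90, -4.17, -4.08 and -4.06 against -2.27, -1.55, -2.27 and -2.44, again without overlap, and relative to Ctss the difference was -1.38, likewise without overlap. Relative to Lyz2 Cd68 was at -6.42, -6.27, -7.40 and -7.41 with the deletion against -5.20, -5.003, -4.71 and -6.33 without it. Here the groups overlapped, since 11B3-deleted replicate 2 exceeded p53-loss-only replicate 4, and the difference was -1.56. Relative to the adjacent genes Mpdu1 and Eif4a1 the differences of Cd68 were -1.16 and -1.24, both with overlap. Relative to Ctsb the difference was -1.41, without overlap.

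Of the 31 genes, 24 had a lower mean in the 11B3-deleted group and 7 a higher one, where 48.4% of all tested genes were lower. None passed the main test or edgeR, which called 0.00681% of all genes (limma adjusted p of at least 0.996 for the other 30). At an unadjusted p under 0.05, 3 were lower (Cd68, Ctsb and Cd14), against 2.38% of all genes, and 1 was higher (Mrc1), against 1.18%. With a library left out, 2 to 5 were lower at that level. The count was 5 without 11B3-deleted replicate 2 or 4 or p53-loss-only replicate 4. It was 2 without 11B3-deleted replicate 1 or 3 or p53-loss-only replicate 1. The shares of all genes in these fits are not reported here. Cd68 and Ctsb stayed under that p in all 8 fits that left out 1 library, Cd14 in 4 and Mrc1 in 2. Besides Cd68 no gene had groups that did not overlap, where 1.23% of all genes were lower and 0.913% higher without overlap. DESeq2 called none of the 31 higher, against 0.0545% of all genes. The median log2 difference of the other 30 was -0.35, against 0.01 for all tested genes. Markers of several other cell types stood the other way: the mean was higher in the 11B3-deleted group for 10 of 10 B cell genes (median 1.68), 11 of 11 erythroid genes (1.79), 10 of 10 stroma and endothelium genes (0.59), 7 of 8 megakaryocyte genes (0.52) and 7 of 10 dendritic cell genes (0.72). Of these only 2 dendritic cell genes were higher at an unadjusted p under 0.05, and the part of such cells in the monocyte values was not tested. For the B cell genes, the library median was 5.68 in 11B3-deleted replicate 3, against -0.85, -1.43 and 0.62 in replicates 1, 2 and 4. It ran from -1.70 to 0.40 without the deletion. The remaining lists were mixed: 6 of 12 granulocyte genes (median -0.07), 6 of 10 T cell genes (-0.25) and 4 of 8 progenitor genes (0.20) had a lower mean. At that p, 1 progenitor gene was lower and 2 were higher. For 27 of the 31 the 95% interval included 0, and for 23 it included -1, so that a change as large as that of copy loss could not be told from none for most of them.

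**Figure D4:**
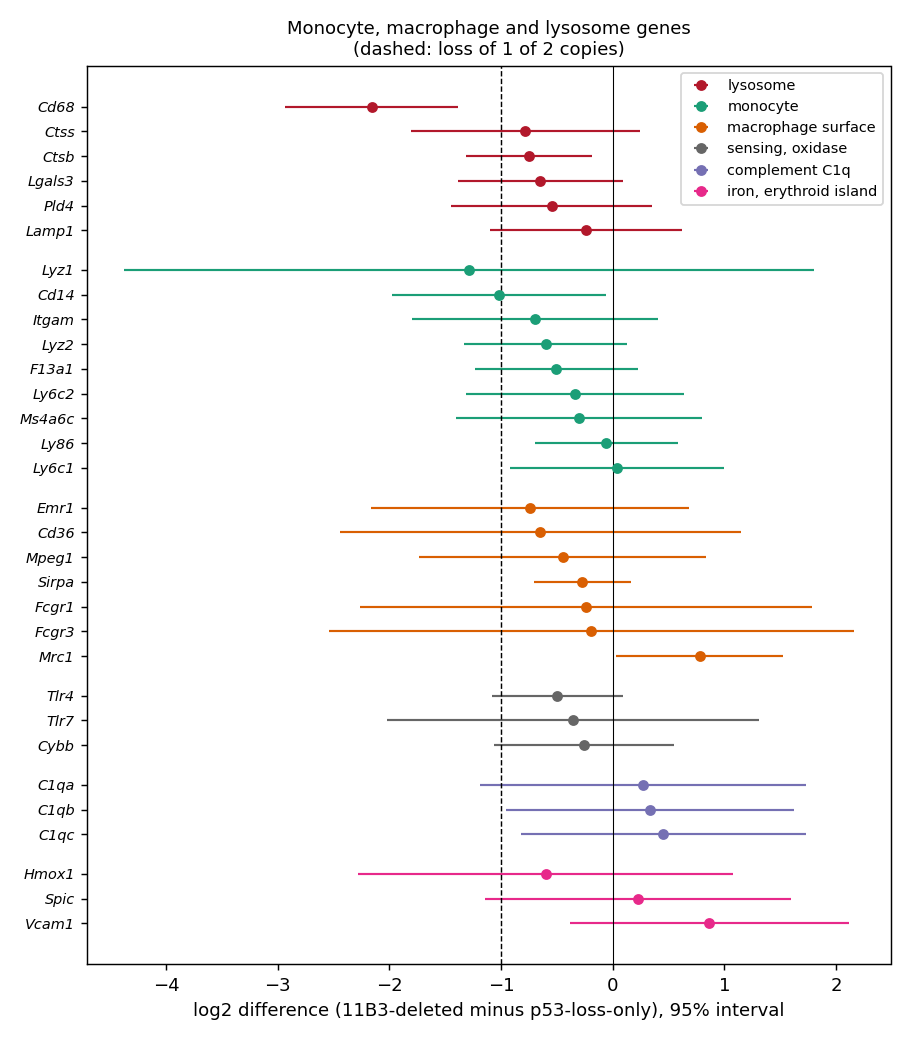
Log2 difference (11B3-deleted minus p53-loss-only) of each of the 31 genes with its 95% interval, grouped by role. Cd68, at the top, lies furthest left among them and alone has an interval wholly below the dashed line at -1, while the C1q genes and Spic (whose signs turned with other tools), Vcam1 and Mrc1 lie to the right of 0.

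The lysosome genes were the group with the lowest median (-0.70 over 6 genes, Cd68 included), and all 6 had a lower mean. Ctsb, a cysteine protease of lysosomes, was at 17192, 30830, 14329 and 21283 with the deletion against 29268, 35154, 41555 and 30069 without it. Only 11B3-deleted replicate 2 reached the other group, and the log2 difference was -0.75 (SE 0.25, limma adjusted p = 0.996). Fdft1 overlaps 12.8% of its exonic bases on the other strand, so its value is uncertain to that extent. Ctss, the protease that trims the invariant chain in antigen-presenting cells, was at 5667, 13638, 4185 and 7592 against 12756, 12269, 23050 and 5973. Its highest 11B3-deleted library exceeded 3 of the p53-loss-only libraries, and the difference was -0.78 (SE 0.45), or -0.47 without p53-loss-only replicate 3. Lgals3, a galactose-binding lectin abundant in macrophages, was at 8202, 24437, 9249 and 9990 against 17236, 15744, 21844 and 18785. Its difference of -0.65 (SE 0.33) became -1.003 without 11B3-deleted replicate 2 and -0.48 without 11B3-deleted replicate 1. Lamp1, the main glycoprotein of the lysosomal membrane, was at 18049, 34383, 13992 and 26570 against 33841, 16596, 42795 and 18480, with fully mixed groups and a difference of -0.24 (SE 0.38). Pld4, an endosomal nuclease, differed by -0.55 (SE 0.40).

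Other lysosome genes were measured from a list that excludes the 31. Of 48 tested rows, 43 had a lower mean in the 11B3-deleted group, with a median log2 difference of -0.35, against 48.4% lower and 0.01 over all genes. None passed the main test. At an unadjusted p under 0.05 by limma 9 were lower and 0 higher, against 2.38% and 1.18% of all tested genes, while edgeR and DESeq2 called 0 of them. Among those with the smallest p were Gusb (beta-glucuronidase, -0.54, SE 0.15), Npc1 (lysosomal cholesterol export, -0.64, SE 0.19), Gla (alpha-galactosidase A, -0.96, SE 0.32) and Tpp1 (a lysosomal peptidase, -0.59, SE 0.21). Gusb was at 7717, 7751, 8055 and 7878 with the deletion against 13226, 9254, 11630 and 11953 without it, a narrow range in the first and no overlap.

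Genes of the monocyte state had a median difference of -0.50 over 9 genes, 8 of them lower. Cd14, the co-receptor for lipopolysaccharide, was at 749, 946, 297 and 836 with the deletion against 2003, 831, 1746 and 1019 without it. The groups touched only through p53-loss-only replicate 2, and the difference was -1.02 (SE 0.42, limma adjusted p = 0.996). Without 11B3-deleted replicate 3 it was -0.64 (95% interval -1.41 to 0.12). Lyz2, the lysozyme of monocytes and granulocytes, had the highest level per exonic length of the 31 in both groups. It was at 103707, 147445, 139209 and 270016 against 257849, 182156, 233006 and 274936, and 11B3-deleted replicate 4 stood among the p53-loss-only libraries (difference -0.60, SE 0.32). F13a1 differed by -0.50 (SE 0.32), Itgam, the integrin chain CD11b, by -0.69 (SE 0.49), Ly6c2 by -0.34 (SE 0.43), and Ms4a6c by -0.30 (SE 0.49). Ly86, the partner of the receptor RP105, differed by -0.06 (SE 0.28) and Ly6c1 by 0.04 (SE 0.42). Per kilobase of exon, the level of Ly6c1 was 55.5 and that of Ly6c2 14027 in the p53-loss-only group, and 32.8% of its 50-base words occur in other genes' transcripts, first of all Ly6c2's, so its value is uncertain. Itgam and Ms4a6c share 68.7% and 53.1% of their exonic bases with other annotated genes, and their values are uncertain too.

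Lyz1, the lysozyme otherwise known from Paneth cells of the gut, varied most of all 31 genes, over 189-fold between libraries. It was at 396, 1332, 69.8 and 288 with the deletion against 13225, 259, 642 and 170 without it, so that 1 library, p53-loss-only replicate 1, stood far above the rest. Its log2 difference of -1.29 (SE 1.37) became 0.07 without that library. Lyz1 shares 16.1% of its 50-base words with Lyz2, so its value is uncertain, and the part of shared reads was not tested.

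Of the 7 surface genes of macrophages, 6 had a lower mean and 1, Mrc1, a higher one (median log2 difference -0.27). Mrc1, the mannose receptor, was at 184, 168, 150.3 and 121 with the deletion against 68.0, 144, 74.5 and 88.3 without it. It was higher by 0.78 (SE 0.33, 95% interval 0.03 to 1.53, limma adjusted p = 0.996), with overlap only through p53-loss-only replicate 2. The IgG receptor gene Fcgr3 was at 5142, 12114, 1117 and 12466 against 14699, 5294, 19296 and 981, a difference of -0.19 (SE 1.04), smaller than its error. Fcgr1, the high-affinity IgG receptor, was at 186, 81.7, 58.2 and 423 against 425, 266, 215 and 29.8 (difference -0.24, SE 0.90). In both Fc receptor genes p53-loss-only replicate 4 was lowest of the 8 libraries. The fatty acid receptor gene Cd36 was at 127, 110, 196 and 129 against 147, 805, 43.8 and 408, even in the 11B3-deleted group and spread over 18.4-fold in the other. Emr1 differed by -0.74 (SE 0.63) and by -0.17 without 11B3-deleted replicate 3, the pore-forming Mpeg1 by -0.45 (SE 0.57), and Sirpa, the receptor for CD47, by -0.27 (SE 0.19).

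Among sensing and oxidase genes, Tlr4, the lipopolysaccharide receptor, was at 553, 1057, 1071 and 920 with the deletion against 995, 1170, 1628 and 1195 without it (difference -0.49, SE 0.26). Tlr7, the receptor for single-stranded RNA, differed by -0.36 (SE 0.74), and Cybb, the catalytic subunit of the phagocyte oxidase, by -0.26 (SE 0.36). None of the 3 separated the groups.

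The 3 C1q genes, which encode the chains of the first complement component and are adjacent in the genome, had higher limma differences of 0.27, 0.33 and 0.45 for C1qa, C1qb and C1qc (SE 0.65, 0.57 and 0.56). The sign of C1qa turned with edgeR, DESeq2 and voom, and those of C1qb and C1qc turned with voom, and C1qa and C1qb also turned without p53-loss-only replicate 4. C1qb was at 575, 455, 251 and 241 with the deletion against 502, 570, 216 and 102 without it, so high and low libraries were present in both genotypes. Of the genes tied to red-cell recycling and erythroblastic islands, Vcam1, an adhesion molecule, differed by 0.87 (SE 0.55), Spic, the transcription factor of red pulp macrophages, by 0.23 (SE 0.60, turned with edgeR and DESeq2), and the haem oxygenase gene Hmox1 by -0.60 (SE 0.74). Spic stayed between 14.8 and 101 in every library.

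**Figure D5:**
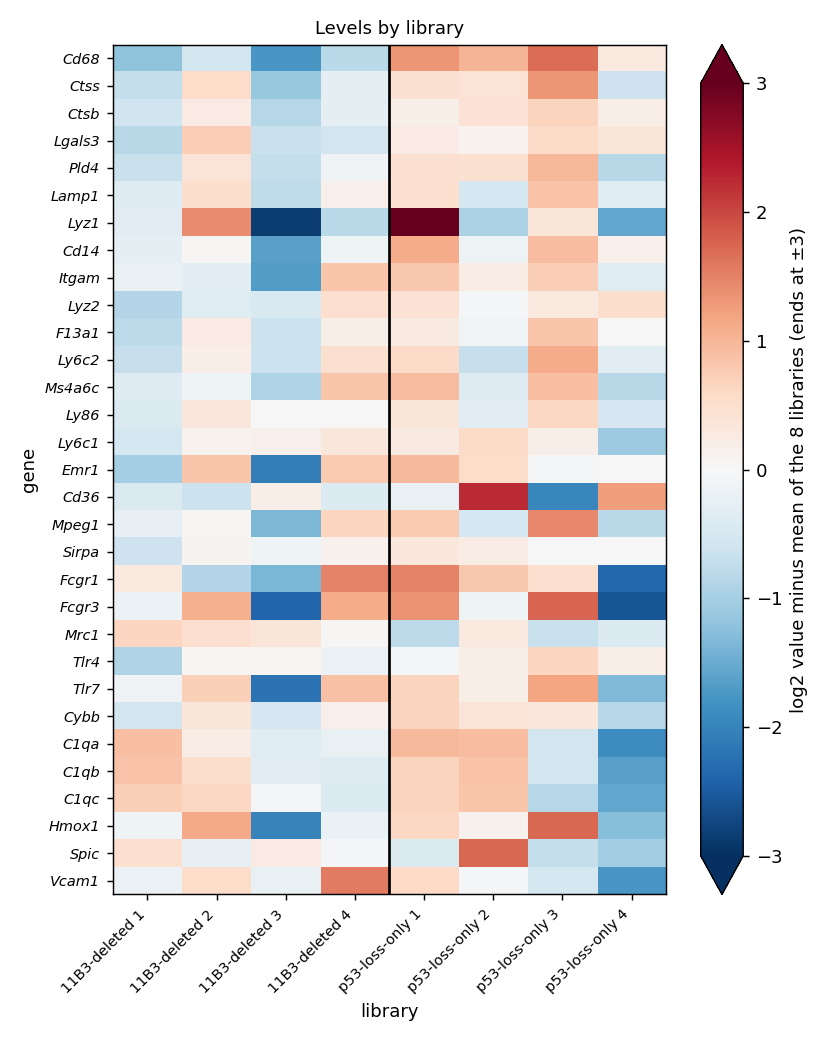
Log2 value of each of the 31 genes in each library, relative to the gene's mean over the 8 libraries (colour scale from -3 to 3), ordered by role. Only Cd68 is below its mean in all 4 11B3-deleted libraries and above it in all 4 p53-loss-only libraries, and 11B3-deleted replicate 3 and p53-loss-only replicate 4 are the lowest library for 12 and 11 genes.

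Single libraries held most of the extremes. Of the 31 genes, 12 were lowest in 11B3-deleted replicate 3 and 11 in p53-loss-only replicate 4, while 13 were highest in p53-loss-only replicate 3 and 8 in p53-loss-only replicate 1. 11B3-deleted replicate 3 is the library with the high B cell median of 5.68. Without it, Cd68 differed by -1.93 in place of -2.16, and 42 rather than 53 of the 60 other monocyte genes had a lower mean. Such a drop was not particular to that library. The count was 43 without p53-loss-only replicate 1 and 46 without p53-loss-only replicate 3, and Cd68 differed by -1.96 without the latter. With any 1 library left out the count ran from 42 to 57. The part of B lineage or erythroid RNA in these levels was not tested.

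Of the 60 other monocyte and macrophage genes, 53 had a lower mean in the 11B3-deleted group, against 48.4% of all tested genes, with a median log2 difference of -0.51. At an unadjusted p under 0.05 by limma 7 were lower and 0 higher, against 2.38% and 1.18% of all tested genes. None passed the main test or edgeR, and DESeq2 called 2 of them lower, against 0.341% of all tested genes, Clec4d among them. Clec4d, a C-type lectin that senses fungi, was at 469, 506, 144 and 419 with the deletion against 807, 1060, 2077 and 1160 without it. The groups did not overlap, and the difference was -1.79 on the log2 scale (SE 0.45), with adjusted p = 0.996 by limma and 0.0317 by DESeq2. Cx3cr1, the fractalkine receptor, was at 1038, 82.8, 976 and 1236 with the deletion against 2281, 2332, 3890 and 3281 without it. Its difference was -2.34 (SE 0.78), and -1.41 without 11B3-deleted replicate 2, the lowest library. In the main fit Cx3cr1 thus lay below Cd68 (-2.16), and 28 of all 14679 tested genes did so. By edgeR, DESeq2 and voom the difference of Cx3cr1 was -1.83, -1.82 and -1.78, smaller in size than Cd68 by the same tools. The beta-glucan receptor Clec7a (-0.85, SE 0.26) and Trem2 (-1.12, SE 0.36) were also among those with the smallest p. None of these 4 genes lies in the deleted segment, and the main differences of 3 of them lay beyond -1.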

How the data were processed

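Total RNA of 8 leukaemia libraries was sequenced by the authors. STAR, HTSeq, DESeq and mm9 are listed in the submitters' processing notes, with no role given. Each deposited table gives a signal value per gene by the authors. After subtracting 1, every value is a whole multiple of a step fixed within its library, so whole reads were recovered for 100% of the values (tolerance 0.02), and edgeR on them called 1 gene. The use of strand in counting is not stated in these sources, and 3 reads correspond to values of 3.663 to 4.29.

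Groups were taken from the titles. The main test was limma (trended prior variance) on log2-transformed deposited values, whose own 1 is the pseudocount, so folds of low genes are understated. The filter kept 14679 genes that reached 10 in 4 or more libraries, tested two-sided, with Benjamini-Hochberg adjustment over all of them at 0.05. Cd68 set against the segment or its neighbours as a set within a library was compared by the exact permutation test. Cd68 set against monocyte or lysosome genes, or against single genes, had no such test. The covariate fit added a library median to the limma model. The software was Python 3.11.15 and R 4.3.3 with DESeq2 1.42.0, limma 3.58.1 and edgeR 4.0.16. The procedures were tested on simulated data.

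The genes and lists were chosen with earlier results of these data known. By the naming rule, every gene of the set is given, with library values for those with the smallest p and the widest range, and up to 5 genes per other list by smallest p, of which some are not reported here. The written interval list had 63 tested genes, of which 2, Naa38 and 2500002B13Rik, do not lie there in GENCODE M21 (GRCm38), while 10 that do were missing. The place of genes in that annotation was therefore used for counts. Exonic overlap, length and shared 50-base words come from the same annotation, which is not the authors' build. Every pair of libraries differed by more than sampling noise. Alternatives were edgeR, DESeq2, limma voom, TMM rescaling, an added constant of 5, other filters, a replicate block, other yardsticks and covariates, and each library left out. The yardstick by place, the block in the covariate fit, the counts of lower means across settings, and the left-out fits of genes on the other lists were added after seeing the data.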

Additional observations from a re-analysis of the deposited data

How the results depend on the processing

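The number of genes called over all genes was 2 with limma, 1 with edgeR, 58 with DESeq2 (50 lower and 8 higher), 0 with limma voom, 1 with a constant of 5, 1 with a mean of at least 50 and 0 with the replicate block, and 0 to 2 with a library left out. DESeq2 called 1 of the 31 genes, Cd68 (-2.17), and every other setting without a covariate called 0. The log2 difference of Cd68 kept its direction in all 16 alternatives and ran from -2.42 to -1.93 with a library left out (limma adjusted p from 0.171 to 0.975). Relative to the interval Cd68 ran from -1.51 to -0.92 with a library left out (exact permutation p from 0.0571 to 0.114). With the monocyte median as covariate it ran from -1.71 to -1.41, and with the median of the other genes of the set as covariate it was -1.82. The latter fit called Cd68. The genes behind each covariate were chosen with earlier results known, so neither fit is independent support. Replicate numbers did not pair the libraries: deviations of same-numbered libraries correlated at -0.03, -0.22, -0.41 and -0.24, and no number's libraries correlated best with each other. With the replicate block Cd68 stayed at -2.16 (limma adjusted p = 0.9995), at -1.27 relative to the interval (exact sign-flip p = 0.125, the smallest possible) and at -1.56 with the covariate. Of the other 30 genes, 11 changed sign in at least 1 alternative, all within their error. Ly6c1 was -0.0505 with edgeR, -0.0452 with DESeq2 and -0.12 with voom, C1qa -0.0572, -0.0414 and -0.34, Spic -0.25 with edgeR and -0.24 with DESeq2, and C1qb -0.24 and C1qc -0.0889 with voom. With a library left out the ranges were -0.32 to 0.24 for Ly6c1, -2.02 to 0.0743 for Lyz1, -0.24 to 0.14 for Ly86, -0.31 to 0.64 for C1qa, -0.16 to 0.67 for C1qb, -0.0791 to 0.84 for Spic, -1.06 to 0.22 for Fcgr1, -1.08 to 0.57 for Fcgr3, -0.85 to 0.32 for Tlr7 and -0.45 to 0.0068 for Lamp1. The cause was not tested. Of the 31 genes, 20 to 28 had a lower mean with a library left out. Leaving out a library moved Cd14 between -1.24 and -0.64, Ctss between -1.12 and -0.47, and Emr1 between -1.14 and -0.17. Every gene of the set had more than 3 reads in every library, and the part of counting error in the spread was not tested.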
